A study of Mus musculus with 2 samples.

Results

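The hypoxia response genes described here are 10 genes named by symbol, namely Egln3, Slc2a1, Pgk1, Ldha, Car9, Adm, Bnip3, Hilpda, Ndrg1 and Ankrd37, of the 32285 genes of the count matrices. All 10 were found in both matrices. Single-cell RNA-seq with a 10x Genomics 3' kit measured them in 2 libraries of mouse ovarian tumors, one from KPCA.FSTKO cells and one from KPCA.FSTKO_hFSTL3 cells. KPCA cells are a syngeneic mouse ovarian cancer line with mutant Trp53 in which Ccne1 and Akt2 are overexpressed. Both lines lack Fst, and the second also expresses human FSTL3, a secreted inhibitor of activin. The second line is a stable clone selected for FSTL3 secretion after transfection of the first. Both were grafted in female C57BL/6J mice of 12 to 16 weeks, and omental tumors were collected at day 10, with 4 tumors pooled into 1 library per genotype.

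Cells sense oxygen through the hypoxia-inducible factors. In the presence of oxygen, prolyl hydroxylases of the Egln family modify the alpha subunits Hif1a and Epas1, and the Vhl ubiquitin ligase then marks them for degradation. When oxygen is low the alpha subunits persist, pair with Arnt and bind short DNA elements near genes that raise glucose uptake and glycolysis, export acid, attract vessels and limit mitochondrial mass. Solid tumors that outgrow their blood supply are a well-known setting of this response, in cancer cells and in the stromal and myeloid cells beside them.

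Barcodes were assigned to a class from the UMIs of marker lists per 10000 UMIs, after the filters of the study on mitochondrial share and gene number. In KPCA.FSTKO, 3500 cancer-gated, 337 stromal-gated and 737 macrophage-gated barcodes were obtained of 6777, with medians of 29033.5, 17768 and 13542 UMIs. In KPCA.FSTKO_hFSTL3 the same gates held 228, 56 and 133 barcodes of 4041, with medians of 41958.5, 23631.5 and 19106 UMIs. The second library stood apart. Of its filtered barcodes, 62.5% carried markers of cancer, stromal and macrophage cells at once, against 0.767% in KPCA.FSTKO, and these mixed barcodes had a median of 91.6 UMIs of pancreatic acinar genes per 10000. The gate limits kept them out of the cancer- and stromal-gated classes. A macrophage-gated barcode with 10 to under 15 cancer UMIs and at least 5 stromal UMIs per 10000 also met the mixed rule. How many did so was not counted. The mixed barcodes are described at the end. Cancer markers (12 genes) took 5924 and 5379 CPM (UMIs per 1000000 UMIs of the class) in the cancer-gated barcodes of the 2 libraries and 131 to 406 CPM in the stromal- and macrophage-gated ones, and macrophage markers (10 genes) were at 11549 and 11176 CPM in macrophage-gated barcodes and at 54.4 to 83.9 in the other 2 classes. Stromal markers (12 genes) were at 26980 and 28010 CPM in stromal-gated barcodes. They were at 853 and 520 CPM in cancer-gated and 112 and 65.0 in macrophage-gated ones. The cancer gate allowed under 100 stromal UMIs per 10000, more than the 60 that the stromal gate asked for. Fst was at 4.99 and 8.68 CPM in cancer-gated barcodes, and 3' counts do not show whether the coding sequence is intact. The libraries share 12 barcode names. Without them the counts of members by class and library were the same, and the pairs of members with r of at least 0.1, given further on, were 35 and not 40 in cancer-gated and 34 and not 36 in macrophage-gated barcodes of KPCA.FSTKO. A second random thinning of all barcodes gave 38 and 34.

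The DNA before the RefSeq start sites of the members was read for the core letters of the hypoxia-inducible factor element, ACGTG and GCGTG, on both strands. RefSeq promoter windows of GRCm38.p6 held 9 of the 10 members (Ndrg1 was not among them) in 11 windows, since Ldha and Hilpda have 2 each. In the 250 bases before the start, 10 of the 11 windows held at least 1 match, against 38.6% of all 32851 windows. Some of these bases are annotated as exon by GENCODE. A match outside annotated exons was held by 9 of the 11 windows, against 29.5% of all windows, and the only match of the Car9 window lay in an exon. The windows of Ldha and Ankrd37 belong to RefSeq starts that lie inside the annotated genes, by 4329 and 5607 bases for Ldha and 5857 for Ankrd37. ACGTG occurred in 8 of 11 windows against 16.6% of all, and GCGTG in 6 of 11 against 28.2%. Within CACGTG both strands match ACGTG, which gives 2 overlapping matches. A match is a description of the letters and not a measured binding site. The windows of the 4 members that followed the summed others most closely in KPCA.FSTKO cancer-gated barcodes (Pgk1, Bnip3, Ldha and Hilpda) and of Adm, which differed most between the libraries in that class, are shown 5' to 3' without any annotated exon at their end, with matches in capitals (CACGT and CACGC are matches on the other strand). Pgk1 is at chrX:106186850-106187099 on the plus strand, Bnip3 at chr7:138909520-138909756 on the minus strand, and the first windows of Ldha and Hilpda at chr7:46845554-46845803 and chr6:29272238-29272487 on the plus strand, with Adm at chr7:110627407-110627656 on the plus strand.
Pgk1: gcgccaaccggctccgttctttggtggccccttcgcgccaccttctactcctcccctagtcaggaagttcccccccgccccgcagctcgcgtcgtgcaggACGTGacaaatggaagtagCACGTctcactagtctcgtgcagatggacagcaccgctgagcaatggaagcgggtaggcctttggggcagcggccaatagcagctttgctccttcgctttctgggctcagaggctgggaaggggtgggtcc
Bnip3: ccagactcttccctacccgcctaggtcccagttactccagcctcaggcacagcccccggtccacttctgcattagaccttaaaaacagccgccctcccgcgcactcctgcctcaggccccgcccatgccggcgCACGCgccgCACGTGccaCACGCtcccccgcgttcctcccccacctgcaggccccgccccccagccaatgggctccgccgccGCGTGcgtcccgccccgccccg
Ldha: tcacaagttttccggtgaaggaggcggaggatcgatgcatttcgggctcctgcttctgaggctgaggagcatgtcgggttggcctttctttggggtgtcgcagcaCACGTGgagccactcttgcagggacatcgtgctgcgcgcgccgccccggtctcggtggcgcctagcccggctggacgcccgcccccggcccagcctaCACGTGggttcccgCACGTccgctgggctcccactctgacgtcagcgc
Hilpda: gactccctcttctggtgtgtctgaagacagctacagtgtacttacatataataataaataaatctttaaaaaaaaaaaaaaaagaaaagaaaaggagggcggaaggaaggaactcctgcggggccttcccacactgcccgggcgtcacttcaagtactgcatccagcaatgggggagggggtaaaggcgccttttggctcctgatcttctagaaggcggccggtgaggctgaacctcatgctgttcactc
Adm: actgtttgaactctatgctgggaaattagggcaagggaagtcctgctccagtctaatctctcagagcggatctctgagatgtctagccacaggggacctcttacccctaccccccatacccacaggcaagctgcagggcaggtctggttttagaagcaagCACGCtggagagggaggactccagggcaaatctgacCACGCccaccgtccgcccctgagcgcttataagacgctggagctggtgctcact
The Bnip3 and Ldha windows each held 5 matches, the Pgk1 and Adm windows 2, and the first Hilpda window none, while the second Hilpda window, whose start lies 138 bases inside the gene, held 3, all within the gene.

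The members were first compared between the gated classes of the same library. Egln3 (GRCm38 chr12:54178981-54203860), a prolyl hydroxylase that is itself induced by the factors it inactivates, stood at 278 CPM in cancer-gated, 329 in stromal-gated and 175 in macrophage-gated barcodes of KPCA.FSTKO. In KPCA.FSTKO_hFSTL3 the same values were 113, 236 and 143. Cancer-gated barcodes were above macrophage-gated ones in the first library and below them in the second. Stromal-gated barcodes had the highest value in both, but in KPCA.FSTKO_hFSTL3 a single one of the 56 barcodes held 139 of the 344 Egln3 UMIs. When each class was taken without the barcode with most Egln3 UMIs, the 3 levels there were 109, 143 and 131 CPM.

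Slc2a1, Pgk1 and Ldha act in glucose use. Slc2a1 (chr4:119108711-119137983), the glucose transporter GLUT1, was at 168, 182 and 242 CPM in cancer-, stromal- and macrophage-gated barcodes of KPCA.FSTKO and at 97.5, 70.0 and 164 in KPCA.FSTKO_hFSTL3, so that macrophage-gated barcodes were highest in both. Pgk1 (chrX:106187100-106203699), phosphoglycerate kinase of glycolysis, was at 1280.0, 611 and 691 CPM and at 1208, 372 and 583 in the same order. Ldha (chr7:46841475-46855627), which turns pyruvate into lactate, was at 1044 CPM, 688 and 784 and at 942, 557 and 588. For both of these enzymes cancer-gated barcodes were the highest of the 3 classes and stromal-gated barcodes the lowest, in each library. For Ldha in KPCA.FSTKO_hFSTL3 the counting intervals of stromal-gated (519 to 596 CPM) and macrophage-gated barcodes (559 to 618) overlapped. Pgk1 has 3 annotated copies in the genome and Ldha 2, and reads that match a copy equally well may be lost from either gene.

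Car9 (chr4:43506966-43513729), the membrane carbonic anhydrase that acidifies the space around hypoxic cells, showed the widest spread between classes. It reached 88.0 CPM in stromal-gated barcodes of KPCA.FSTKO, with 18.4 in cancer-gated and 5.81 in macrophage-gated ones. In KPCA.FSTKO_hFSTL3 it was at 45.3, 4.23 and 4.28 CPM. Stromal-gated barcodes exceeded cancer-gated ones 4.77-fold in the first library (95% counting interval 4.34 to 5.24) and 10.7-fold in the second (7.12 to 16.3). The second value rests on 66 Car9 UMIs, of which 1 barcode held 26. Without the barcode with most Car9 UMIs in each class, stromal-gated barcodes of KPCA.FSTKO_hFSTL3 were at 28.1 CPM and the ratio was 8.26. Macrophage-gated barcodes held 62 and 11 Car9 UMIs in all, against 3.71 CPM (0.0940 to 20.7) in the erythroid-gated barcodes of KPCA.FSTKO, which should lack the gene. Car9 is also a gene of mesothelial cells. The stromal gate set an upper limit on cancer markers, and how many mesothelial cells it kept was not counted. The 8 genes of the mesothelial list were found in few stromal-gated barcodes, thinned to 5000 UMIs. Shares ran from 2.08% (Upk3b) to 15.7% (Msln) in KPCA.FSTKO and from 0% (Upk3b) to 7.14% (Lrrn4) in KPCA.FSTKO_hFSTL3. In stromal-gated barcodes of KPCA.FSTKO the r of Car9 with these genes ran from -0.03 (Msln) to 0.17 (Nos2). It was 0.14 for Calb2 (337 barcodes of 1 library). In the 56 stromal-gated barcodes of KPCA.FSTKO_hFSTL3 it reached 0.64 with Gpm6a and 0.59 with Calb2, which were found in 1.79% and 3.57% of them. Most genes of this list were under the detection limit of 5% used further on.

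Adm (chr7:110627661-110629820) encodes adrenomedullin, a secreted peptide that widens vessels. It was at 56.2, 77.6 and 18.8 CPM in cancer-, stromal- and macrophage-gated barcodes of KPCA.FSTKO, and at 11.2, 21.3 and 3.11 in KPCA.FSTKO_hFSTL3. The order of the 3 classes was the same in both libraries. Few barcodes carried most of it. The 5% of cancer-gated barcodes with most Adm UMIs held 48.1% of them in KPCA.FSTKO and 71.7% in KPCA.FSTKO_hFSTL3, and for Car9 these shares were 71.2% and 82.5%.

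Bnip3 (chr7:138890836-138909519), a receptor for mitochondrial autophagy, differed little between classes, at 242, 214 and 281 CPM in KPCA.FSTKO and 153, 113 and 147 in KPCA.FSTKO_hFSTL3. Hilpda (chr6:29272488-29275446), which holds back lipolysis at lipid droplets, was highest in macrophage-gated barcodes of both libraries, at 666 CPM against 369 in cancer-gated and 314 in stromal-gated barcodes of KPCA.FSTKO, and at 289 against 122 and 87.2 in KPCA.FSTKO_hFSTL3. Ndrg1 (chr15:66929318-66969640), a stress-induced protein linked to differentiation, was at 305, 632 and 172 CPM in the first library and at 360, 297 and 113 in the second. Stromal-gated barcodes were highest in the first library and cancer-gated barcodes in the second. Ankrd37 (chr8:45996902-46005707), an ankyrin repeat protein, was at 48.4, 39.8 and 80.5 CPM and at 50.4, 8.92 and 33.5. Its gene overlaps Ufsp2 and Lrp2bp on the other strand, and Car9, Adm, Bnip3, Ndrg1 and Slc2a1 overlap antisense genes, so that these counts depend on the strand setting, which is not given in the sources used here.

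**Figure D1:**
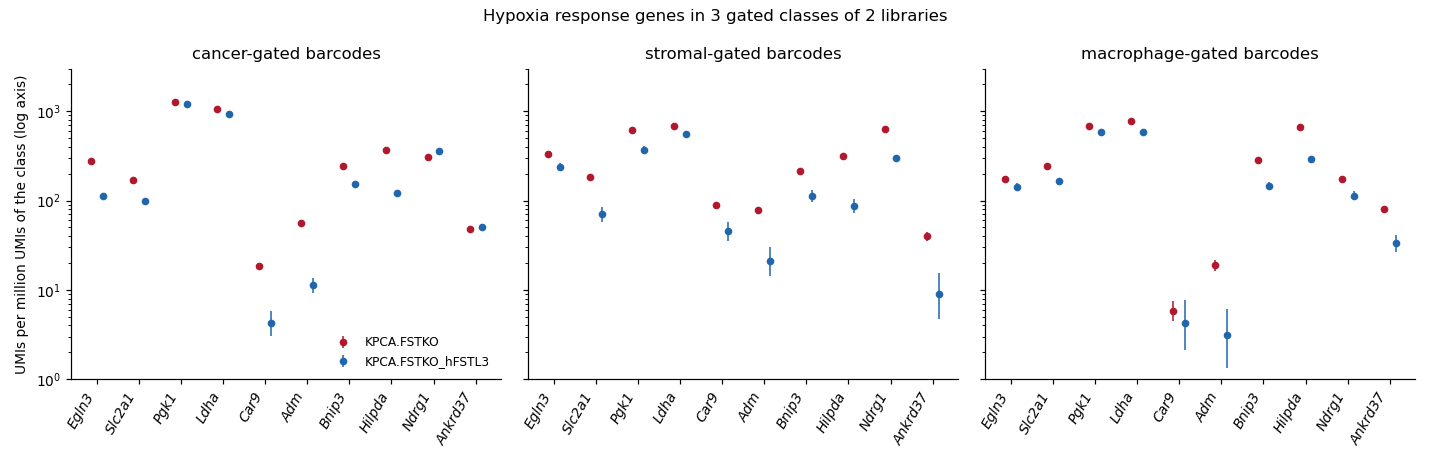
CPM of each member (log axis) in cancer-, stromal- and macrophage-gated barcodes of KPCA.FSTKO (red) and KPCA.FSTKO_hFSTL3 (blue), with exact 95% Poisson intervals that cover counting error only. Car9 stands at 88.0 in stromal-gated and 5.81 in macrophage-gated barcodes of KPCA.FSTKO, and the blue points lie under the red ones except for Ndrg1 and Ankrd37 in cancer-gated barcodes.

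The class differences were then read against all genes. By a rule of size (at least 100 UMIs over both classes and a CPM ratio of at least 2), Car9 and Ndrg1 were higher in stromal- than in cancer-gated barcodes of KPCA.FSTKO, 2 of 10 members against 14.4% of all genes tested, and Pgk1 was lower, 1 of 10 against 19.4%. In KPCA.FSTKO_hFSTL3, Car9 and Egln3 were higher (2 of 10, 11.9% of all genes). Both calls were lost without the barcode with most UMIs of the gene in each class, where the Egln3 ratio was 1.31 and Car9 had under 100 UMIs. There Pgk1 and Ankrd37 were lower (2 of 10, 16.3%). Between macrophage- and cancer-gated barcodes of KPCA.FSTKO none of the 10 members was higher (15.9% of all genes), and Car9 and Adm were lower (2 of 10, 32.5%). In KPCA.FSTKO_hFSTL3, Hilpda was higher (1 of 9 tested, 17.3%) and Adm, Ndrg1 and Pgk1 were lower (3 of 9, 25.8%). These counts are of the size that the shares over all genes give for 10 genes. With 1 library per genotype no comparison here has a replicate, and no test was made.

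Smaller cell types of KPCA.FSTKO held some members at higher levels than the 3 main classes. Neutrophil-gated barcodes (84) had 806 CPM of Egln3 (694 to 931), 571 of Slc2a1 (477 to 678) and 985 of Hilpda (861 to 1122), each above all other classes with intervals that did not overlap the next. Endothelial-gated barcodes (59) had 344 CPM of Adm (302 to 391) and 235 of Ankrd37 (200.3 to 274), again above every other class. In KPCA.FSTKO_hFSTL3 the endothelial-gated barcodes (16) were again the highest class for Adm, at 251 CPM (185 to 333), and for Ankrd37, at 62.8 CPM, whose interval (32.5 to 109.8) included the level of cancer-gated barcodes. Car9 gave no UMI in endothelial-gated barcodes of either library, which by a limit of 3 counts allows up to 4.35 CPM in the first and 15.7 in the second (upper ends of the exact intervals 5.35 and 19.3). Erythroid-gated barcodes of KPCA.FSTKO (58), taken as a guide to free RNA, held 3.71 CPM of Ndrg1 and Ankrd37, 18.6 of Bnip3, Egln3 and Slc2a1, 33.4 of Hilpda, 74.2 of Ldha and 130 of Pgk1, with no Adm UMI. In the 3 main classes of that library every member stood above the interval of its erythroid level, except Car9 in cancer- and macrophage-gated barcodes.

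The members were lower in KPCA.FSTKO_hFSTL3 than in KPCA.FSTKO in most gated barcodes. In cancer-gated barcodes Adm was 5.01-fold lower (4.13 to 6.13), Car9 4.36-fold (3.19 to 6.11), Hilpda 3.03-fold (2.86 to 3.21) and Egln3 2.46-fold (2.31 to 2.62), from the CPM values above. These 4 of 10 members were lower by the size rule, against 6.68% of all genes tested, and none was higher, against 3.56%. Slc2a1 and Bnip3 had ratios of 0.581 and 0.632, while the glycolytic enzymes Pgk1 and Ldha had ratios of 0.944 and 0.902. The median log2 ratio of the 10 members was -0.72, and that of all genes tested was 0.0064.

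Ndrg1 and Ankrd37 went another way in cancer-gated barcodes. Ndrg1 was at 305 and 360 CPM, a log2 ratio of 0.24 that became 0.13 with TMM scaling, 0.06 without the barcode with most Ndrg1 UMIs in each class and -0.05 as a mean of single barcodes. Ankrd37 was at 48.4 and 50.4 CPM, and its log2 ratio of 0.06 became -0.05 with TMM scaling and -0.06 as a mean of single barcodes. Its interval of 0.945 to 1.14 for the ratio included 1.

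In stromal-gated barcodes all 10 members had a ratio under 1. Ankrd37 was 4.46-fold lower (2.56 to 8.49), on 13 UMIs in KPCA.FSTKO_hFSTL3, Adm 3.65-fold (2.54 to 5.43), Hilpda 3.6-fold (3.01 to 4.35), Slc2a1 2.59-fold (2.12 to 3.21) and Ndrg1 2.13-fold (1.93 to 2.35). They made 5 of 10 members lower by the size rule, against 1.94% of all genes, with none higher against 1.59%. The count was 3 with the mean of single barcodes and 8 at a ratio of 1.5. It was also 8, with a median log2 ratio of -1.45, when each class was taken without the barcode with most UMIs of the member. Without those barcodes the CPM ratio was 0.337 and not 0.515 for Car9, 0.174 and not 0.274 for Adm, and 0.446 and not 0.717 for Egln3. The median log2 ratio was -1.02, and 0.09 over all genes. The mesothelial genes Msln and Calb2 were lower too, with log2 ratios of -1.69 and -1.06, and the proliferation genes Mki67 and Top2a were higher, with 1.31 and 1.46. Their part in the result was not tested.

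In macrophage-gated barcodes 9 members could be tested, Car9 having too few UMIs, and all 9 had a ratio under 1. Adm was 6.03-fold lower (3.0 to 14.2) on 8 UMIs, Ankrd37 2.41-fold (1.93 to 3.04) and Hilpda 2.30-fold (2.13 to 2.49), which made 3 of 9 lower by the size rule against 1.42% of all genes, and none higher against 1.63%. The stricter gate gave 5. Bnip3 had a ratio of 0.523, and Egln3, Ndrg1, Slc2a1, Pgk1 and Ldha had ratios from 0.656 to 0.843. The median log2 ratio was -0.61, and 0.11 over all genes. Of 8 proliferation genes 3 were higher by the size rule, with a median log2 ratio of 0.85. Their part in the result was not tested.

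**Figure D2:**
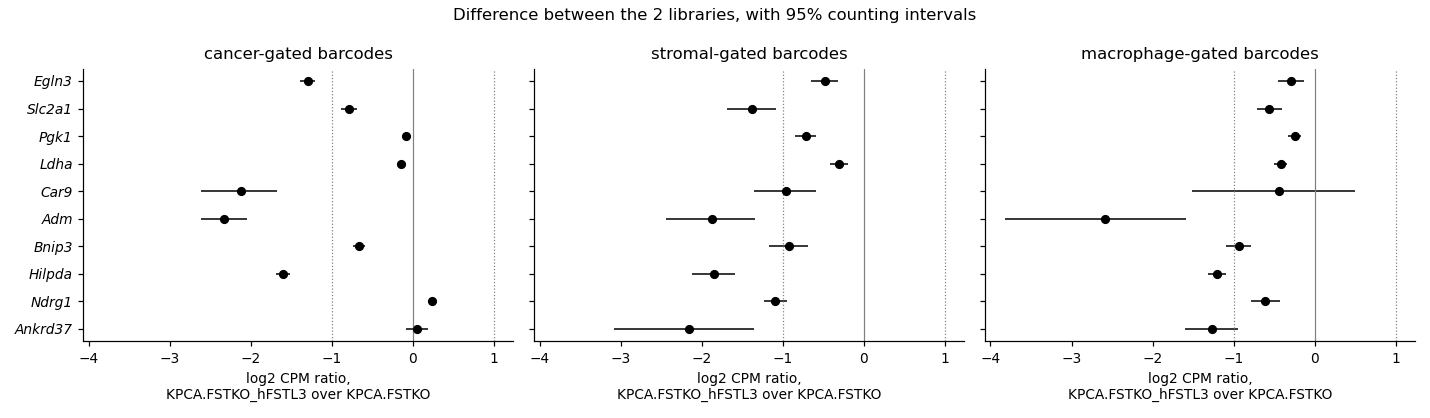
log2 CPM ratio of each member, KPCA.FSTKO_hFSTL3 over KPCA.FSTKO, in 3 gated classes, with exact 95% counting intervals, a solid line at no difference and dotted lines at a ratio of 2. Of 30 points, 28 lie left of the solid line, and Ndrg1 (0.24) and Ankrd37 (0.06) in cancer-gated barcodes lie right of it.

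Acinar RNA moved with the libraries. Its 15 marker genes took 811, 821 and 1182 CPM in the cancer-, stromal- and macrophage-gated barcodes of KPCA.FSTKO_hFSTL3, against 49.4, 152 and 85.3 in KPCA.FSTKO. Without the barcodes in which they exceeded 1% of UMIs, the median log2 ratio of the members was -0.72 in cancer-gated, -1.15 in stromal-gated and -0.62 in macrophage-gated barcodes. TMM scaling lowered all log2 ratios by 0.11, 0.14 and 0.15 in the 3 classes. The immediate early and heat shock genes that tissue dissociation can induce (10 genes, none at 0 in any class) also moved in cancer-gated barcodes, where 8 of 10 had a ratio under 1 with a median log2 ratio of -0.44, and 1 was lower by the size rule. Summed, they were at 3510 CPM in KPCA.FSTKO and 2906 in KPCA.FSTKO_hFSTL3. In stromal- and macrophage-gated barcodes the medians were 0.03 and -0.04. Their part in the result was not tested.

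Other genes of the pathway were compared between the libraries in the same way. The genes named in this paragraph were chosen after their values were seen, as those that passed. Of 36 other hypoxia targets, 34 were tested in cancer-gated barcodes, of which 5 were lower by the size rule, against 6.68% of all genes (Slc16a3, the lactate exporter, with a log2 ratio of -1.40, and Pfkfb3, Nrn1, Hmox1 and Gbe1), and Pdgfb was higher (2.09). In stromal-gated barcodes 6 of 32 were lower, against 1.94% of all genes (Ero1l, Ddit4, Hmox1, Stc1, Stc2 and Car12), and none was higher. The median log2 ratio of these targets was -0.19 in cancer-gated, -0.67 in stromal-gated and -0.30 in macrophage-gated barcodes, between that of the members and that of all genes. Glycolysis genes had medians of -0.30, -0.48 and -0.46 in the same order, with 3 of 16 (Aldoc, Ldhb and Slc2a3), 2 of 14 (Eno1 and Slc2a3) and 0 of 13 lower by the size rule, against 6.68%, 1.94% and 1.42% of all genes. In the integrated stress response list 2 of 8 genes were higher in cancer-gated barcodes, against 3.56% of all genes. They were Chac1 and Atf4, with log2 ratios of 1.92 and 1.17, and the list median was 0.76. None of the 7 tested regulators passed in any class, and Hif1a was at 269.7 and 181 CPM in cancer-gated, 192 and 154 in stromal-gated and 449 and 405 in macrophage-gated barcodes of KPCA.FSTKO and KPCA.FSTKO_hFSTL3.

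Most pairs of members varied together from barcode to barcode within the cancer-, stromal- and macrophage-gated classes. To hold depth fixed, every barcode was thinned at random to 5000 UMIs, and Pearson's r of log2(UMIs + 1) was taken for the 45 pairs of members. In cancer-gated barcodes of KPCA.FSTKO (3500) the median r was 0.18, and 40 of 45 pairs reached 0.1, against 2.59% of all pairs of genes found in at least 5% of these barcodes. In stromal-gated barcodes (337) the median was 0.31 and 44 pairs reached 0.1, against 6.68%, and in macrophage-gated barcodes (737) it was 0.23 with 36 pairs, against 1.33%. All barcodes of a class share 1 library, so these values describe that library.

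In KPCA.FSTKO_hFSTL3 there were fewer barcodes. The median r was 0.17 in cancer-gated (228), 0.24 in stromal-gated (56) and 0.20 in macrophage-gated (133) barcodes. Pairs at 0.1 or more numbered 40, 29 and 33 of 45, against 11.0%, 23.9% and 14.2% of all pairs of genes. In stromal-gated barcodes Adm reached 0.1 with no other member, with r from -0.11 (Ldha) to 0.09 (Slc2a1). The pairs of members include genes found in under 5% of barcodes, which the pairs of all genes do not. Among members over that limit, 36 of 36 pairs reached 0.1 in macrophage-gated barcodes of KPCA.FSTKO, and 27 of 28 in cancer-gated and 26 of 28 in macrophage-gated barcodes of KPCA.FSTKO_hFSTL3. All 10 members passed it in the other gated classes.

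The closest pairs differed in part between classes. Pgk1 and Ldha, both enzymes of glucose breakdown, had r = 0.51 in cancer-gated, 0.50 in stromal-gated and 0.42 in macrophage-gated barcodes of KPCA.FSTKO. The next closest pairs in cancer-gated barcodes were Bnip3 with Pgk1 (0.39), Egln3 with Ndrg1 (0.36) and Ndrg1 with Slc2a1 (0.36). In stromal-gated ones Ndrg1 with Slc2a1 (0.56) and Ndrg1 with Bnip3 (0.54) were the closest pairs. The pairs with Car9 were the weakest in macrophage-gated barcodes, with r down to -0.06, where the gene was near background.

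**Figure D3:**
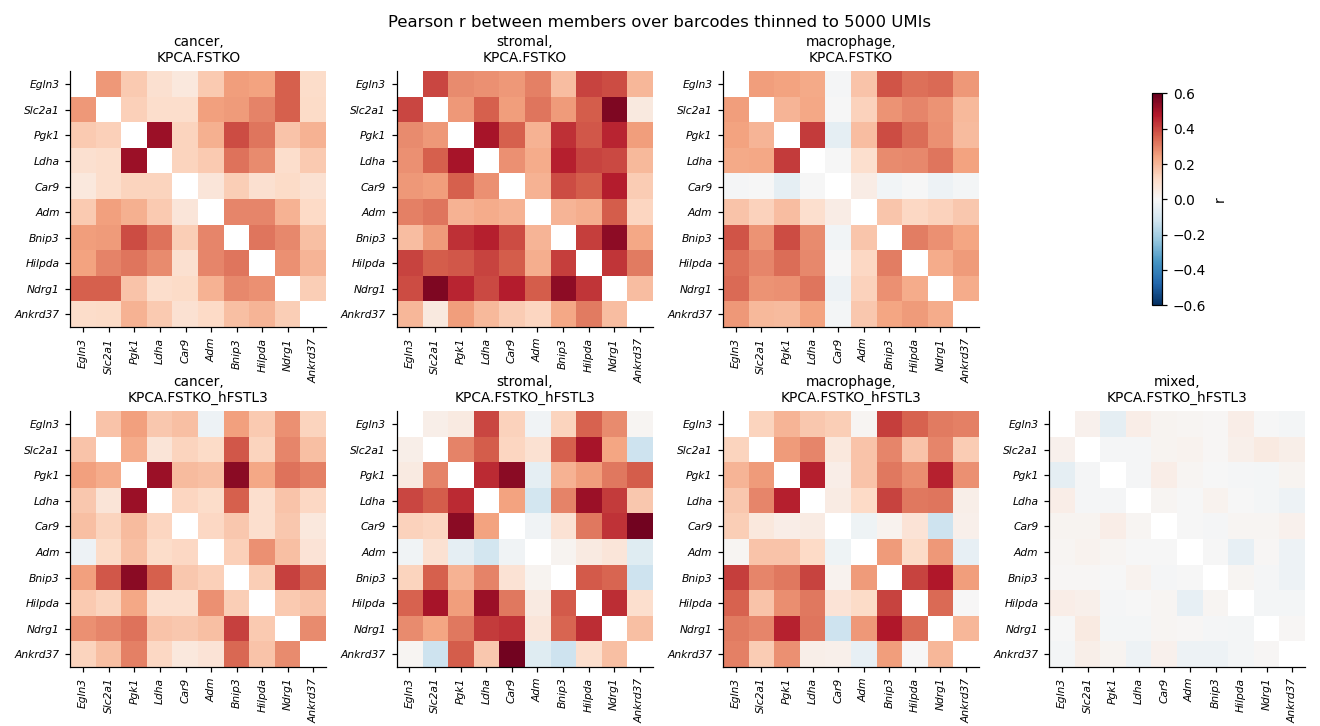
Pearson r between each pair of members over barcodes thinned to 5000 UMIs, by class (columns) and library (rows), on a scale from -0.6 (blue) to 0.6 (red). Gated classes are mostly red (median r from 0.17 to 0.31). The row and column of Car9 are pale in macrophage-gated barcodes, and those of Adm in stromal-gated barcodes of KPCA.FSTKO_hFSTL3. The mixed barcodes of KPCA.FSTKO_hFSTL3 are pale for all pairs (median 0.0048).

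How far the levels moved is shown by the 25% of barcodes highest and the 25% lowest in the other 9 members. In cancer-gated barcodes of KPCA.FSTKO (875 at each end) Adm was at 123 and 4.37 CPM, 28.1-fold apart (23.1 to 34.6), and Car9 at 39.3 and 3.28 CPM, 12-fold (9.49 to 15.3). Bnip3, Ankrd37 and Hilpda were 7.2-, 6.99- and 6.33-fold apart, Slc2a1, Ndrg1 and Egln3 between 3.0- and 4.46-fold, and Pgk1 and Ldha 2.97- and 2.36-fold. In stromal-gated barcodes Car9 was 46.0-fold apart (22.1 to 115), at 229.7 and 5.00 CPM, Slc2a1 16.6-fold, Ndrg1 15.8-fold and Ldha 3.85-fold. In macrophage-gated barcodes Adm was 9.39-fold, Egln3 8.41-fold and Ankrd37 7.15-fold apart, while Car9 had 12 UMIs in the highest and 15 in the lowest 25%. The 2 abundant enzymes had the smallest values in cancer-gated barcodes, with Pgk1 (2.97) close to the next gene (3.0). Each gene has its own ranking of barcodes, and leaving out Pgk1 or Ldha removes a large part of the sum. The ranges are therefore not on a common scale, and the intervals cover counting error only.

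Among all genes most members stood near the top of those that follow the summed members. For each member the sum left out the gene itself. Pgk1 and Ldha made up 61.0%, 40.9% and 47.3% of the members' UMIs in cancer-, stromal- and macrophage-gated barcodes of KPCA.FSTKO. The shares were 70.2%, 51.4% and 56.6% in the other library. With both left out of the sum, 10, 10 and 9 of all 10 members reached 0.1 in the first library and 10, 8 and 9 in the second. In cancer-gated barcodes of KPCA.FSTKO r ran from 0.17 (Car9) to 0.51 (Pgk1), and all 10 members reached 0.1, against 4.32% of the 8376 genes tested, with none at -0.1 or less, against 9.31%. Pgk1 ranked 4 and Bnip3 5 among these genes, and the lowest members were Ankrd37 at 80 and Car9 at 176. The members were found in 5.97% (Car9) to 93.8% (Pgk1) of these thinned barcodes, and the genes compared were not matched for detection. In stromal-gated barcodes r ran from 0.27 (Ankrd37) to 0.61 (Ndrg1), again with all 10 at 0.1 or more, against 7.92% of genes. In macrophage-gated barcodes 9 members passed the 5% limit, with r from 0.19 (Adm) to 0.50 (Pgk1), all 9 at 0.1 or more against 5.81%, and Car9, below the limit, had r = -0.03. In KPCA.FSTKO_hFSTL3 the members that passed the limit and reached 0.1 were 8 of 8 in cancer-gated (7.99% of genes), 9 of 10 in stromal-gated (21.5%) and 8 of 8 in macrophage-gated barcodes (15.3%), the exception being Adm in stromal-gated barcodes, with r = -0.14. In that class Adm ranked 7044 and Ankrd37 631 of 8822 genes.

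**Figure D4:**
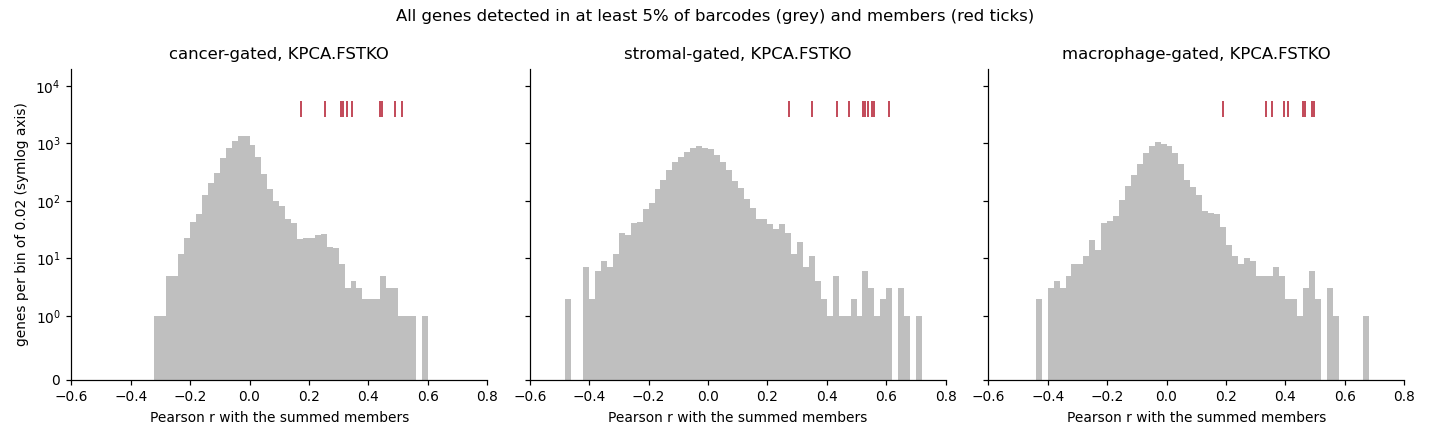
Pearson r of each gene with the summed members (horizontal axis) and number of genes per bin of 0.02 (symlog axis) in the 3 gated classes of KPCA.FSTKO, for genes found in at least 5% of thinned barcodes, with the members as red ticks at an arbitrary height. The ticks lie at 0.17 to 0.51, 0.27 to 0.61 and 0.19 to 0.50, in the right tail of all genes.

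The genes outside the set with the largest r were mostly other glycolytic enzymes and known hypoxia targets. The glycolytic Pgk1 and Ldha made up a large part of the sum, and the r of genes outside the set was not taken without them. In cancer-gated barcodes they were Gapdh (0.60), Tpi1, Aldoa, Mif, Pgam1, Ero1l, Fam162a and Lgals3 (0.46). In stromal-gated barcodes they were Fam162a (0.70), Ero1l, Pkm, Gpi1, Mif, Vegfa, Gapdh and Tpi1 (0.60), and Vegfa, the main vessel growth factor, was at 738 and 46.6 CPM in the highest and lowest 25%. In macrophage-gated barcodes Arg1, which breaks down arginine, came first with r = 0.66 and stood at 8641 and 3039 CPM at the 2 ends, before Gapdh, Pkm, Gpi1, Aldoa, Mif, Srgn and Pgam1 (0.50). In KPCA.FSTKO_hFSTL3 the r of these 24 entries ran from 0.10 (Gpi1 in stromal-gated barcodes) to 0.73 (Arg1).

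The smallest r belonged to other kinds of gene in each class. In cancer-gated barcodes these included the mitochondrially encoded mt-Nd2 (-0.30) and mt-Nd1 (-0.27) and the gene Cdk14 (-0.27). In stromal-gated barcodes they were the matrix and fibroblast genes Lama2 (-0.48), Ebf1 (-0.48), Col4a2 (-0.42) and Igfbp7 (-0.41), with Lama2 at 5.11 and 386 CPM in the highest and lowest 25%. In macrophage-gated barcodes they were Ms4a6b (-0.43), Vcam1 (-0.43), Nrp1 (-0.39) and Fcgrt (-0.39). All of those named were also negative in KPCA.FSTKO_hFSTL3, from -0.13 to -0.47.

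Known markers of macrophage state were among the genes that varied with the members. Of 13 genes of that list, 6 had r of at least 0.1 and 4 of at most -0.1 in macrophage-gated barcodes of KPCA.FSTKO, against 5.81% and 10.3% of all genes. The list includes Vegfa, which is also among the other hypoxia targets. It also holds C1qa, C1qb, C1qc and Mrc1, which are among the markers that defined the macrophage gate. Spp1, osteopontin, had r = 0.38 and Nos2, the inducible nitric oxide synthase, 0.42, while the complement gene C1qa had -0.29 and the mannose receptor Mrc1 -0.22. In KPCA.FSTKO_hFSTL3 the same genes had 0.45, 0.33, -0.34 and -0.33. Arg1 and Spp1 are highly expressed, and in cancer-gated barcodes Spp1 had r = -0.14 in both libraries.

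The lists of the pathway followed the members to different degrees. In cancer-, stromal- and macrophage-gated barcodes of KPCA.FSTKO, 22 of 31, 23 of 31 and 18 of 26 other hypoxia targets had r of at least 0.1, with medians of 0.17, 0.27 and 0.18, and none was at -0.1 or less. The lowest of them were Anxa1 (-0.08) in cancer-gated and Pfkfb4 (-0.10 and -0.07) in the other classes. For glycolysis 12 of 13, 12 of 14 and 12 of 13 genes reached 0.1, with medians of 0.35, 0.44 and 0.38, and Ldhb, the other lactate dehydrogenase subunit, was lowest in stromal- and macrophage-gated barcodes (-0.03 and -0.10). All genes had medians from -0.03 to -0.02. The sum included the glycolytic Pgk1 and Ldha, and the r of these lists was not taken without them. The glycolysis list and the other targets are therefore not on equal terms.

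Among the regulators Egln1, another prolyl hydroxylase and itself a target of the factors, stood out with r = 0.41, 0.48 and 0.37 in the 3 classes of KPCA.FSTKO. The mRNA of the oxygen-regulated subunit Hif1a had 0.12, 0.18 and 0.0042, Egln2 had -0.01, -0.06 and -0.01, and Vhl 0.06, 0.11 and -0.01. Hif1an, an asparagine hydroxylase, had -0.05 and -0.13 in cancer- and stromal-gated barcodes. Epas1 could be tested in stromal- and macrophage-gated barcodes, with -0.03 and 0.02. In all, 3 of 7, 5 of 9 and 1 of 7 regulators reached 0.1. In KPCA.FSTKO_hFSTL3 Hif1a had 0.03, 0.15 and 0.30.

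Genes of other lists are given beside the 4.32%, 7.92% and 5.81% of all genes that reached 0.1 in the 3 classes of KPCA.FSTKO. For the integrated stress response 1 of 6, 2 of 6 and 1 of 5 genes reached 0.1, led by Ddit3 (0.12 and 0.14) and Sesn2 (0.11). For the immediate early and heat shock genes that tissue dissociation can induce, 2, 4 and 2 of 10 genes reached 0.1, in each class a larger share than over all genes, led by Junb (0.17, 0.32 and 0.13), with Ier2 lowest in macrophage-gated barcodes (-0.15). In the 56 stromal-gated barcodes of KPCA.FSTKO_hFSTL3 it was 7 of 10, against 21.5% of all genes. None of 8, 4 and 7 proliferation genes reached 0.1 in either direction, with medians of -0.03, -0.0015 and -0.04. Of the mesothelial list, which also holds Nos2, 1 or 2 genes could be tested in each class, among them Calb2 in stromal-gated barcodes (0.20) and Msln (0.09, 0.05 and -0.05). Depth and mitochondrial share also moved with the summed members. In the 6 gated classes, r of the summed members with total UMIs before thinning was 0.16 to 0.37, and with the mitochondrial share -0.05 to -0.35. Their part in the co-variation was not tested.

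The summed members showed the same difference between the libraries. Per 5000 UMIs, the median barcode held 16, 11 and 13 UMIs of the 10 members in cancer-, stromal- and macrophage-gated barcodes of KPCA.FSTKO. The other library held 11, 5 and 8. Above the upper quartile of KPCA.FSTKO lay 24.6%, 24.3% and 23.2% of its own barcodes. In KPCA.FSTKO_hFSTL3 it was 13.2% of cancer-gated (exact binomial 95% interval 9.06 to 18.2), 8.93% of stromal-gated (2.96 to 19.6) and 7.52% of macrophage-gated barcodes (3.66 to 13.4). These intervals take barcodes of 1 library as units and do not measure the spread between tumors or libraries of a genotype. Barcodes with high summed members were present in all classes of both libraries, with maxima of 43 to 72 UMIs.

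The mixed barcodes of KPCA.FSTKO_hFSTL3 (2526) did not share this pattern. Their members were present, with Bnip3 at 101, Egln3 at 90, Ndrg1 at 203, Hilpda at 185, Slc2a1 at 61.4, Pgk1 at 1007 and Ldha at 754 CPM. Car9 was at 8.07 CPM, above its cancer- and macrophage-gated levels in that library (4.23 and 4.28) and below the stromal-gated level (45.3). Adm was at 10.1 CPM, against 11.2, 21.3 and 3.11 in cancer-, stromal- and macrophage-gated barcodes. Ankrd37, at 55.1 CPM, was above all 3 gated classes, and Bnip3, Egln3 and Slc2a1 were below all 3. Whether RNA of this kind entered the gated levels was not tested. The median r of the 45 pairs was 0.0048, and none reached 0.1, against 0.00350% of all pairs of genes in these barcodes. The summed members had a median of 12 UMIs per 5000 and a variance 1.05 times the mean, where Poisson counting alone gives 1. In the gated classes the variance was 6.81 to 11.6 times the mean. No gene of the 8051 tested had r of 0.1 or more, or of -0.1 or less, with the summed members in the mixed barcodes. The 52 mixed barcodes of KPCA.FSTKO had a median r of 0.11 and a variance 4.05 times the mean.

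**Figure D5:**
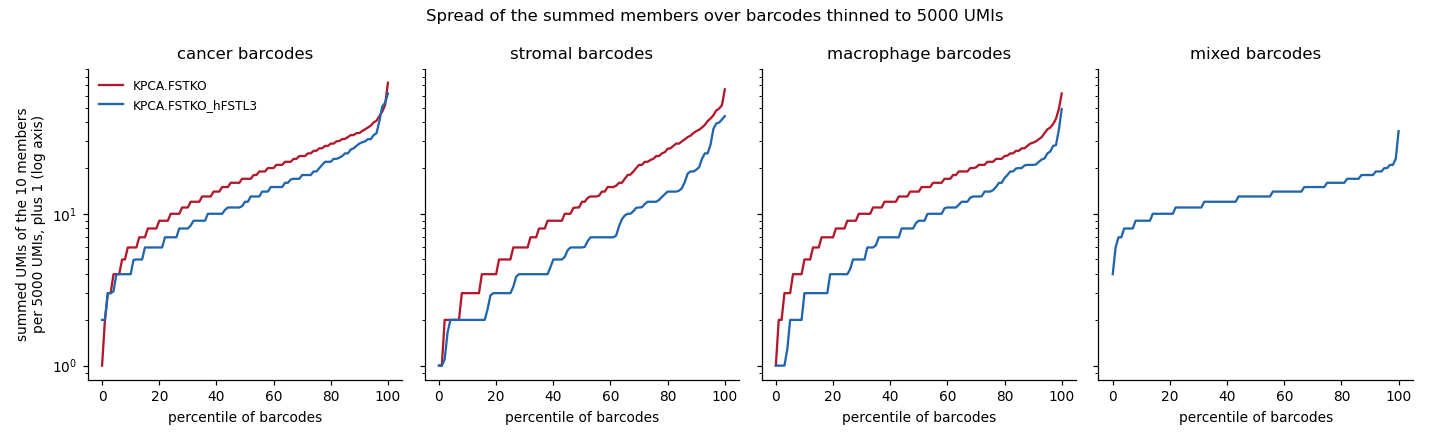
Summed UMIs of the 10 members per 5000 UMIs, plus 1 (log axis), against the percentile of barcodes, in cancer-, stromal- and macrophage-gated barcodes of KPCA.FSTKO (red) and KPCA.FSTKO_hFSTL3 (blue) and in the mixed barcodes of KPCA.FSTKO_hFSTL3. The blue curves lie below the red ones at the median (11 against 16, 5 against 11 and 8 against 13 UMIs), and the mixed curve is nearly flat around its median of 12.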

How the data were processed

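Omental tumors were dissociated and profiled with 10x Genomics 3' chemistry, 1 library per genotype. The authors deposited filtered matrices of raw UMI counts per gene and barcode (7582 and 4244 barcodes, 168214773 and 80391504 UMIs). The labels and methods name Cell Ranger 3.1.0 with mm10, while the matrix headers name Cell Ranger 7.2.0. By default these versions differ in whether intronic reads are counted. The setting is not given in the sources used here, so a UMI may or may not include unspliced RNA. Barcodes with under 20% mitochondrial UMIs and a gene number above 200 and below 8000 were kept, following the methods of the study. The members, marker and gene lists were chosen with earlier results of these data known, and no list or threshold here is independent of them.

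Classes were gated on summed marker UMIs per 10000 (cancer at least 20, stromal 60, macrophage 30, with upper limits on the markers of other types), and cancer-, stromal- and macrophage-gated barcodes needed at least 5000 UMIs. No doublet caller was run. Barcodes with at least 10 cancer, 5 stromal and 5 macrophage UMIs per 10000 were called mixed, which the macrophage gate did not fully exclude. UMIs were summed per class and scaled by the total of the class to CPM. Ratios carry exact conditional binomial 95% intervals and levels exact Poisson intervals, both for counting error only. Shares of barcodes carry exact Clopper-Pearson intervals, which take barcodes as units and cover no spread between tumors or libraries. Correlations used barcodes thinned to 5000 UMIs, log2(UMIs + 1), and genes found in at least 5% of them. The size rule required 100 UMIs and a ratio of 2, and r was counted from 0.1.

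Genes named were the members, for every class the 8 highest and 4 lowest genes by r with the summed members, the ends of each list, the regulators, and Arg1 and Spp1 in macrophage-gated barcodes. Some genes and results are not reported here. Genes outside this rule are said to be so, or come from the macrophage state, mesothelial and proliferation lists (Nos2, C1qa, Mrc1, Msln, Calb2, Gpm6a, Mki67, Top2a and Vegfa), picked once their values were known. Promoter windows came from RefSeq and gene positions from GENCODE for GRCm38. Analyses used Python 3.11.15 with pandas 2.3.3, scipy 1.17.1 and numpy 2.4.6, and edgeR 4.0.16 for TMM alone, and the scripts were tested on simulated data. Alternatives were other gates, filters, thresholds, scalings and thinning depths, and, chosen after seeing the data, leaving out barcode names that both libraries hold, leaving out the barcode with most UMIs of a member, and leaving Pgk1 and Ldha out of the sum.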

Additional observations from a re-analysis of the deposited data

Results flagged for a closer look

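Some members differed in direction between classes or libraries. With 1 library per genotype none of these differences was tested. Between the libraries (KPCA.FSTKO_hFSTL3 over KPCA.FSTKO, log2 of CPM) Ndrg1 stood at 0.24 in cancer-gated barcodes, against -1.09 in stromal-gated and -0.61 in macrophage-gated barcodes. Its log2 ratio of stromal- over cancer-gated barcodes was 1.05 in KPCA.FSTKO and -0.28 in KPCA.FSTKO_hFSTL3. For Slc2a1 the same ratio was 0.11 and -0.48. The log2 ratio of macrophage- over cancer-gated barcodes was -0.67 and 0.34 for Egln3 in KPCA.FSTKO and KPCA.FSTKO_hFSTL3, and 0.73 and -0.59 for Ankrd37.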

How the results depend on the processing

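With 1 library per genotype no result has a replicate, and genotype, clone, pool and library cannot be told apart. No paired analysis was possible because each genotype has 1 library. Between libraries the median log2 ratio of the members kept its sign in all 3 classes under every alternative run. In cancer-gated barcodes it was -0.83 with TMM scaling, -0.87 as a mean of single barcodes and -1.12 without exclusion of other gates, which admits mixed barcodes. In stromal-gated barcodes it was -0.67 without exclusion, with 3 members lower, 3 as a mean of single barcodes and 8 at a ratio of 1.5. Without the barcode with most UMIs of the member in each class, an alternative chosen after seeing the data, it was -1.45 with 8 lower, and stromal over cancer in KPCA.FSTKO_hFSTL3 had 0 higher and macrophage over cancer a median of -0.36. In macrophage-gated barcodes the stricter gate gave -1.07 and 5 members lower, as did the ratio of 1.5 with 5.

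Class differences moved more. Stromal over cancer in KPCA.FSTKO had 1 member higher with TMM scaling, as a mean of single barcodes and without exclusion, 2 lower at a ratio of 1.5, 0 lower without exclusion, and a median of -0.13 with the stricter gate. In KPCA.FSTKO_hFSTL3, 1 was higher with TMM scaling and 0 with the stricter gate, and without exclusion the median turned to 0.35. Macrophage over cancer in KPCA.FSTKO had medians of -0.41 with TMM scaling and -0.72 with the stricter gate, and 5 lower and 2 higher at a ratio of 1.5. In KPCA.FSTKO_hFSTL3 it was 5 lower and 2 higher at a ratio of 1.5, 0 higher with the stricter gate, 1 lower without exclusion, and a median of -0.33 from 20 UMIs.

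Co-variation depended on depth. Thinned to 2000 UMIs, the median r in KPCA.FSTKO was 0.097, 0.17 and 0.13 in cancer-, stromal- and macrophage-gated barcodes, with 22 pairs at 0.1 or more in the first, and 24 and 19 pairs in cancer- and macrophage-gated barcodes of KPCA.FSTKO_hFSTL3. Without thinning the medians were 0.36, 0.43 and 0.31, and 0.38 in cancer-gated barcodes of KPCA.FSTKO_hFSTL3. Without exclusion, that class had a median of 0.027, 0 pairs and 3 members at 0.1. The r of Car9 turned to -0.0060 there with the stricter gate, and that of Adm in stromal-gated barcodes of KPCA.FSTKO_hFSTL3 to 0.019 without exclusion and 0.051 as Spearman's rho. The causes were not tested.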
